A study of Homo sapiens with 2 samples.

Results

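The 9 genes RASSF1, MGMT, CDKN2A, OPCML, DAPK1, CHFR, RARB, CDH13 and RUNX3 are tumor suppressor and repair genes known for promoter methylation in human cancers. They were taken by name, 1 row per symbol, from tables that hold 56638 genes. All 9 were found. RNA was sequenced from TFK1, an established human cholangiocarcinoma cell line, in 2 groups of 1 library each. The shMBD2 cells had MBD2 knocked down with a lentiviral shRNA, and the labels do not say which MBD2 shRNA was used. The shNC cells carried a negative control, and neither group had a further treatment. By the study's methods, infected cells were selected with antibiotic, and no single clone is named.

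In many cancers the CpG-rich promoters of such genes are methylated and the genes are silent. MBD2 is a reader of this mark: it binds methylated CpG dinucleotides and can recruit the histone deacetylases and remodeling enzymes of the NuRD complex. The comparison therefore asks which of the 9 genes were silent in shNC, and whether any was released with less MBD2.

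MBD2 had 365 counts in shMBD2 and 1013 counts in shNC, so its normalized count in shMBD2 was 35.8% of that in shNC, and the knockdown left part of its RNA. The libraries held 14728814 counts in shMBD2 and 14467406 counts in shNC. All 7 markers of biliary epithelium were found in both libraries, from 9.04 TPM for KRT19 to 3890 TPM for KRT8 in shNC. The 16 markers of leukocytes, fibroblasts, endothelium and hepatocytes summed to 8 counts in shMBD2 and 13 in shNC, with 6 of the 16 at 0 in both and none above 6. By counting intervals 6 of the 7 biliary markers were lower in shMBD2 and KRT19 was higher, from -0.73 for SOX9 to 0.75 for KRT19 on the log2 scale. Such intervals left out 0 for 38.1% of the 17545 genes with at least 10 counts. The part of the marker differences in the differences below was not tested. Each group is 1 library, so differences have no replicate check and no test was possible. The 95% intervals (exact, Clopper-Pearson) come from how the reads of a gene divide between shMBD2 and shNC, and they cover counting error only. In RNA from a whole culture, fewer cells with a transcript and less of it per cell cannot be told apart.

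Of the 9 genes, 3 were silent in shNC, defined as 3 or fewer counts, and 6 were expressed. The silent genes were CDKN2A, OPCML and CDH13, each with 0 counts in shNC and 0 counts in shMBD2. None of the 3 was released, which would have needed at least 10 counts in shMBD2. The 6 expressed genes were between 11.6 and 106 TPM in shNC, and none of them had a log2FC past 1 or -1 in shMBD2. The share of silent genes can be read beside that of all protein-coding genes, of which 27.3% had 3 or fewer counts in shNC. Of those silent protein-coding genes, 2.33% reached 10 counts in shMBD2.

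**Figure D1:**
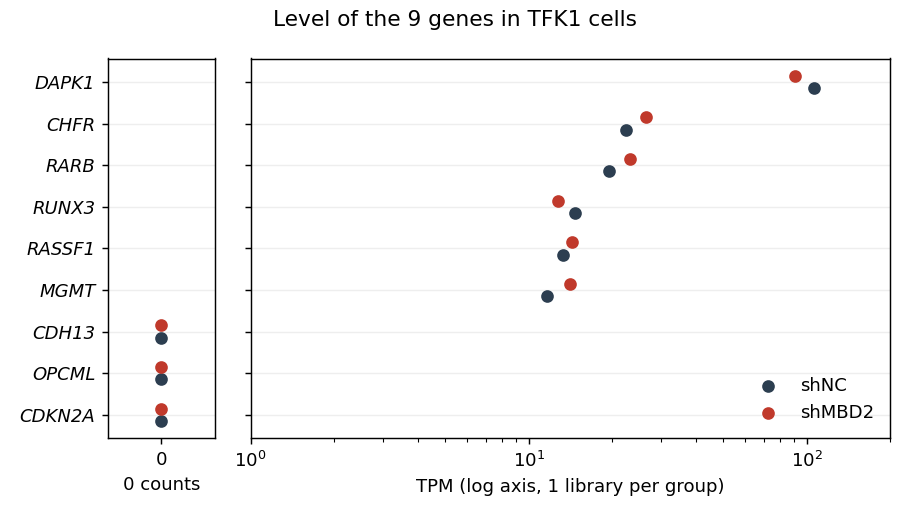
TPM (log axis) of each of the 9 genes in the shNC library and the shMBD2 library, 1 point per library. CDH13, OPCML and CDKN2A sit at 0 counts in both, and each of the other 6 genes has its points side by side, from MGMT at 11.6 and 14.0 TPM to DAPK1 at 106 and 90.9 TPM.

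The sequences at the starts of the genes were compared first, since MBD2 reads CpG dinucleotides. RefSeq (GRCh38.p14) gave windows of 300 bases, from 250 before to 50 after a start, for 8 of the 9 genes and 16 starts. CDH13 had no window, so the CpG content of its start was not assessed. Of these windows 11 were CpG-rich, taken here as an observed over expected CpG ratio of at least 0.65 with a GC content of at least 55%, and each of the 8 genes had at least 1 such window. Of all 35116 RefSeq windows, 41.9% were CpG-rich. The windows below belong to CDKN2A and OPCML, which were silent, and to DAPK1, the most highly expressed of the 9. They set starts of silent genes beside a start of an expressed gene, and which DAPK1 start was used is not known. For OPCML and DAPK1 the window with the most CG dinucleotides is shown. CG dinucleotides are in capitals, and each window is written 5′ to 3′ on the gene's strand.
CDKN2A, start of the p16INK4a transcript, chr9:21974808-21975107, minus strand: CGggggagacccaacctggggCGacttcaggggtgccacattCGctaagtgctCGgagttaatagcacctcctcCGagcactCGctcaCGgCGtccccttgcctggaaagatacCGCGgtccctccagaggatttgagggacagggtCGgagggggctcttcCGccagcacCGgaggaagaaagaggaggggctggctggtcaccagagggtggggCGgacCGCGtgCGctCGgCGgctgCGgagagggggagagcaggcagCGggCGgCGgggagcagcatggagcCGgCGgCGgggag
CDKN2A, start of the p14ARF transcript, chr9:21995275-21995574, minus strand: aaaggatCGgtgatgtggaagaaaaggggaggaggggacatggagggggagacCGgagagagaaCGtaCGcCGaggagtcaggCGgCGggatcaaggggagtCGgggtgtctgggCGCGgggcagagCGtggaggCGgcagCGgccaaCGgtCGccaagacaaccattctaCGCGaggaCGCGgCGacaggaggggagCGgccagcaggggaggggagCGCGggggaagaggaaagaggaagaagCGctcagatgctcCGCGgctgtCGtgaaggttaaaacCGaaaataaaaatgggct
OPCML, chr11:132943787-132944086, minus strand: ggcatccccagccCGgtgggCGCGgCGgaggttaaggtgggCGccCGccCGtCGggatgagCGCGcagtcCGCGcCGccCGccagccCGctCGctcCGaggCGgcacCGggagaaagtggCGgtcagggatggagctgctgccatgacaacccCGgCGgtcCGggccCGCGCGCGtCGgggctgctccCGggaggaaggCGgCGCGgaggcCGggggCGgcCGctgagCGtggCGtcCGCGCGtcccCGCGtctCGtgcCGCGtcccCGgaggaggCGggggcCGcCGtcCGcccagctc
DAPK1, chr9:87497617-87497916, plus strand: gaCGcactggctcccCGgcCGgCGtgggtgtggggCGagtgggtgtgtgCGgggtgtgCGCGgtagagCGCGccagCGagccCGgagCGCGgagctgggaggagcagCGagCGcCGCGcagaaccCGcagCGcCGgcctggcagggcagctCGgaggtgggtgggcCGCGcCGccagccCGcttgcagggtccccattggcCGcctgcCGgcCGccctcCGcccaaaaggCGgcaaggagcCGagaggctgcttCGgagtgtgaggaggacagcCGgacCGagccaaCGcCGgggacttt

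The CDKN2A windows held 26 and 28 CG dinucleotides, the OPCML window shown 50 and the DAPK1 window shown 37, against a median of 14 over all windows. The other OPCML window held 13 and was not CpG-rich, and the other DAPK1 window held 33. The DAPK1 gene was thus expressed from a locus whose windows each held more CG dinucleotides than either CDKN2A window. MGMT held 45, RASSF1 33, the CpG-richest window of CHFR 37, that of RUNX3 38 and that of RARB 33. The RASSF1 window (chr3:50337401-50337700) does not reach the most upstream start of the gene. The RARB window with 33 (chr3:24829071-24829370) lies before the span GENCODE 29 gives RARB, and the 3 RARB windows inside that span held 1, 7 and 2. A count of CG dinucleotides does not tell whether they were methylated in these cells, and DNA methylation was not measured in these libraries.

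**Figure D2:**
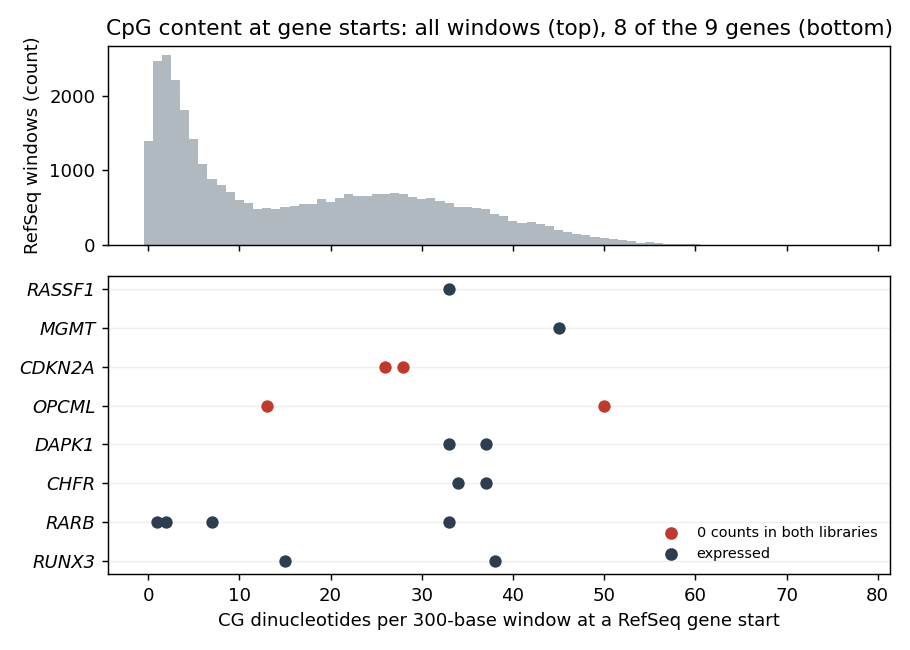
Number of CG dinucleotides per 300-base window at RefSeq gene starts, for all 35116 windows (top, number of windows) and for each window of 8 of the 9 genes (bottom, 1 point per window). The windows of the silent gene CDKN2A (26 and 28) lie within the range of the expressed genes, from 1 in a RARB window to 45 in the MGMT window, and those of the silent gene OPCML (13 and 50) lie on either side of 45.

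CDKN2A (ENSG00000147889, GRCh38 chr9:21967753-21995301, minus strand) encodes p16INK4a, an inhibitor of CDK4 and CDK6, and p14ARF, which restrains MDM2. It had 0 counts in shMBD2 and 0 in shNC. A count of 0 allows up to 3 counts, or 0.204 CPM (counts scaled to the library total) in shMBD2 and 0.207 CPM in shNC. The same limits hold for OPCML and CDH13. The genes around CDKN2A were as low. CDKN2B, which encodes the CDK4 and CDK6 inhibitor p15INK4b, had 0 counts in each library, as did the antisense transcript CDKN2B-AS1. MTAP, a methionine salvage enzyme made in most cell types, had 2 counts in each library, or 0.059 TPM in shNC.

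By the coordinates in the tables, CDKN2A lay in a run of 16 consecutive genes with fewer than 10 counts summed over both libraries. Of these genes 3 are protein-coding (MTAP, CDKN2A and CDKN2B), 12 had 0 counts in both libraries, and the 16 together had 8 counts in shMBD2 and 4 in shNC. The run was bounded by IFNE, with 57 counts in shMBD2 and 58 in shNC, and by RP11-408N14.1, with 138 and 139, which lie 722 kb apart. Both boundary genes had near-equal counts in the libraries, with log2FCs of -0.034 and -0.019. MIR31HG, a noncoding gene that overlaps IFNE and reaches into the stretch, had 24 counts in shMBD2 and 34 in shNC. RNA counts do not tell a silent copy of a gene from a missing one, and whether TFK1 cells retain this stretch of chromosome 9 was not tested.

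**Figure D3:**
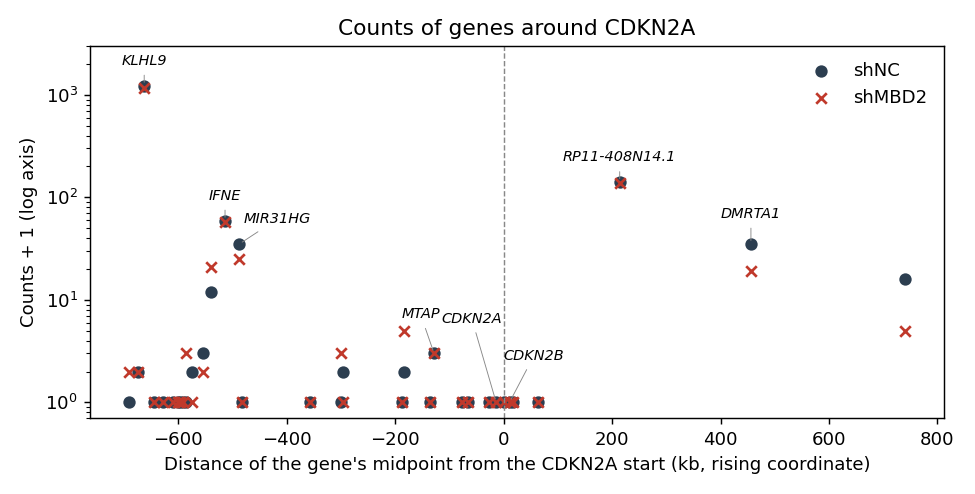
Counts plus 1 (log axis) of each gene around CDKN2A against the distance of its midpoint from the CDKN2A start in kb, for shNC (circles) and shMBD2 (crosses). Between MIR31HG (34 counts in shNC and 24 in shMBD2) and RP11-408N14.1 (139 and 138) no gene, MTAP, CDKN2A and CDKN2B included, is above 4 counts in either library.

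OPCML (ENSG00000183715, chr11:132414977-133532519, minus strand) encodes a GPI-anchored cell adhesion molecule of the IgLON family. It had 0 counts in both libraries, and so did the 4 genes that overlap it. Of the other IgLON genes, NTM, its nearest protein-coding neighbor, had 0 counts in both, and NEGR1 had 0 counts in shMBD2 and 2 in shNC. LSAMP was the IgLON gene above the limit of 10 counts: it had 33 counts in shMBD2 and 68 in shNC, or 0.61 and 1.29 TPM, and a log2FC of -1.04 (interval -1.70 to -0.43). OPCML, NTM and NEGR1 were thus at or under 3 counts in both libraries, and LSAMP was expressed and lower in shMBD2.

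CDH13 (ENSG00000140945, chr16:82626803-83800640, plus strand) encodes T-cadherin, an atypical cadherin held at the membrane by a GPI anchor. It had 0 counts in both libraries, and the 11 genes that overlap it reached at most 1 count. Its nearest protein-coding neighbors were expressed: HSBP1 had 1779 counts in shMBD2 and 1872 in shNC, and MPHOSPH6 had 380 and 360. In this the CDH13 locus differed from those of CDKN2A and OPCML. The nearest protein-coding genes of CDKN2A were also near 0, and those of OPCML, NTM and SPATA19, had 0 counts in both libraries. Of the classical cadherins compared with it, CDH1 (E-cadherin) had 2342 counts in shMBD2 and 1762 in shNC, with a log2FC of 0.40 (interval 0.31 to 0.49). CDH2 (N-cadherin) had 713 and 499 counts and a log2FC of 0.51 (interval 0.34 to 0.67). CDH3 (P-cadherin) had 5 counts in shMBD2 and 0 in shNC, which is too few for a fold.

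Among the 6 expressed genes, 4 were higher and 2 lower in shMBD2, with a median log2FC of 0.20 and a range from -0.19 to 0.30. The median was -0.0082 over the 17545 genes that had 10 or more counts in all. A log2FC above 1 was found in 5.48% of these genes and a log2FC below -1 in 5.07%, against 0 of the 6 in either direction. All 6 had at least 100 counts. Of the 11972 genes with at least 100 counts, fewer were past the lines, 213 above 1 and 127 below -1. At such shares 6 genes are too few to set them apart from other genes. For 3 of the 6 the counting interval did not hold 0, which was so for 38.1% of the 17545 genes.

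DAPK1 (ENSG00000196730, chr9:87497228-87708633, plus strand), a kinase that promotes cell death, was the most highly expressed of the 9. It had 3126 counts in shMBD2 and 3549 in shNC, or 90.9 and 106 TPM, and in shNC its TPM was above that of 93.0% of protein-coding genes. It was lower in shMBD2, with a log2FC of -0.19 (interval -0.26 to -0.12). This is the narrowest interval of the 6, as DAPK1 had the most reads. Of its relatives, DAPK2 had 101 and 107 counts (log2FC -0.092, interval -0.50 to 0.31), and DAPK3 had 413 and 275 counts and a log2FC of 0.58 (interval 0.35 to 0.80).

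CHFR (ENSG00000072609, chr12:132822187-132956304, minus strand), a ubiquitin ligase of the checkpoint that delays entry into mitosis under stress, had 492 counts in shMBD2 and 405 in shNC, which is 26.4 and 22.3 TPM. CHFR was higher in shMBD2, beyond counting error, with a log2FC of 0.27 (interval 0.079 to 0.47). It overlaps GOLGA3 (1756 and 1700 counts) and ZNF605 (284 and 262 counts) on the same strand, so reads in shared exons could not be assigned with certainty. RNF8, a related ubiquitin ligase, had 326 and 300 counts and a log2FC of 0.11 (interval -0.12 to 0.34).

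RARB (ENSG00000077092, chr3:25174332-25597932, plus strand), a nuclear receptor for retinoic acid, had 409 counts in shMBD2 and 335 in shNC, which is 23.2 and 19.5 TPM. The log2FC of RARB was 0.28, with an interval from 0.067 to 0.49. TOP2B, 52 bases from RARB on the opposite strand by the deposited coordinates, had 5337 counts in shMBD2 and 5748 in shNC. The strand setting is not given, and whether reads of TOP2B entered the RARB count was not tested. RARB was expressed at a level near those of its paralogs, since RARA was at 28.8 TPM and RARG at 29.4 TPM in shNC. RARA had 393 and 388 counts (log2FC 0.010, interval -0.20 to 0.22), and RARG had 424 and 485 counts (log2FC -0.20, interval -0.39 to -0.012). Of the partner receptors, RXRB had 309 and 412 counts and a log2FC of -0.42 (interval -0.64 to -0.21). RXRA had 1164 and 1136 counts (log2FC 0.026), and RXRG had 0 counts in both libraries.

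MGMT (ENSG00000170430, chr10:129467184-129768007, plus strand), which removes alkyl groups from guanine in DNA, had the fewest reads of the 6. It had 141 counts in shMBD2 and 114 in shNC, or 14.0 and 11.6 TPM. Its log2FC of 0.30 was the highest of the 6, but the interval ran from -0.069 to 0.67, so the difference was within counting error. The 3 genes that overlap MGMT had 0 counts in both libraries.

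RASSF1 (ENSG00000068028, chr3:50329782-50340980, minus strand), a scaffold that ties Ras signaling to the Hippo kinases, had 168 counts in shMBD2 and 152 in shNC, which is 14.3 and 13.2 TPM. The difference was again within counting error, at a log2FC of 0.14 (interval -0.19 to 0.46). In cancers it is the RASSF1A promoter that is methylated, while RASSF1C is made from a start of its own further along the gene. The 5 protein-coding transcripts of RASSF1 in GENCODE 29 begin at 5 positions spread over 3472 bases, and the counts are per gene, so these libraries do not tell which start was used. The same holds for CHFR, RUNX3 and RARB, whose starts are spread over 68772, 35133 and 283978 bases, and for DAPK1 over a shorter span (1777 bases). The starts of CDKN2A, OPCML and CDH13 are spread over 23969, 589427 and 236 bases. These genes had 0 counts in both libraries, so no start was seen in use. All 10 RASSF genes were expressed at 1 TPM or more in both libraries, and none was past a log2FC of 1 or -1. RASSF10, another RASSF gene known for methylation in tumors, had 164 counts in shMBD2 and 97 in shNC and the highest log2FC of the family, 0.75 (interval 0.38 to 1.13).

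RUNX3 (ENSG00000020633, chr1:24899511-24965121, minus strand), a transcription factor that acts with CBFB in TGF-beta signaling, had 316 counts in shMBD2 and 355 in shNC, which is 12.7 and 14.7 TPM. RUNX3 was lower by a log2FC of -0.18, within counting error (interval -0.40 to 0.046). RUNX1 had 398 and 345 counts (log2FC 0.20, interval -0.014 to 0.41), and CBFB had 853 and 907 counts (log2FC -0.097). RUNX2 was the RUNX gene past the line of 1, with 71 counts in shMBD2 and 24 in shNC, 2.18 and 0.76 TPM, and a log2FC of 1.54 (interval 0.87 to 2.29).

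**Figure D4:**
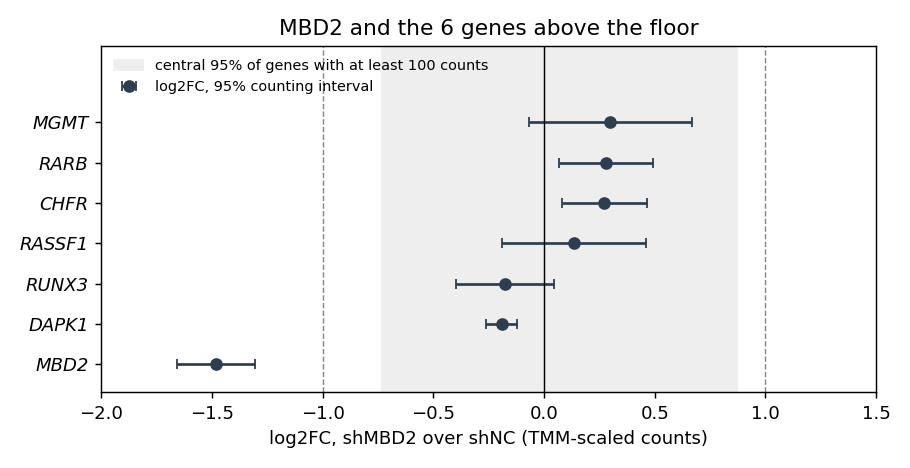
Log2FC of shMBD2 over shNC for MBD2 and the 6 expressed genes, with 95% counting intervals as bars, dashed lines at -1 and 1, and a gray band for the central 95% of genes with at least 100 counts (-0.73 to 0.87). MBD2 lies at -1.48, and the 6 genes lie between -0.19 and 0.30, inside the band.

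The CDKN2 relatives with reads were both lower in shMBD2. CDKN2C (p18INK4c) had 351 counts in shMBD2 and 497 in shNC, with a log2FC of -0.51 (interval -0.71 to -0.31). CDKN2D (p19INK4d) had 23 and 63 counts and a log2FC of -1.44 (interval -2.22 to -0.75). With CDKN2A and CDKN2B at 0, CDKN2C was the INK4 gene with the highest TPM in both libraries, at 21.1 in shMBD2 and 30.7 in shNC.

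A wider panel of 58 genes, also known for promoter methylation in cancers, was then compared in the same way. In shNC 12 of the 58 were silent, 6 of them with 0 counts in both libraries (CCND2, CDKN2B, EDNRB, NEUROG1, SFRP2 and TIMP3), and 32 were at 1 TPM or more. Of all protein-coding genes, 27.3% were silent by the same limit. None of the 12 silent genes reached 10 counts in shMBD2, beside 2.33% of all silent protein-coding genes. At so low a share, 12 genes are too few to set the panel apart from other silent genes. The silent genes with the most reads in shMBD2 were PYCARD, an adaptor of the inflammasome, with 9 counts against 1, and SFRP5, a secreted Wnt antagonist, with 9 against 3. If a released gene had only to reach 1 TPM in shMBD2, PYCARD would count, at 1.38 TPM against 0.158 TPM in shNC.

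Among the 58, 46 genes passed the limit of 10 counts. Their median log2FC was 0.10, and 6 lay above 1 and 2 below -1, beside 5.48% and 5.07% of all genes compared. PTGS2, the inducible prostaglandin synthase COX-2, differed with the most reads: it had 6313 counts in shMBD2 and 1759 in shNC, a log2FC of 1.83 (interval 1.76 to 1.91). It was not silent in shNC, at 69.9 TPM. LOX, which cross-links collagen, had 46 and 17 counts and a log2FC of 1.40 (interval 0.60 to 2.32). For SFRP5 and the cytokine signaling inhibitor SOCS1 (10 and 4 counts, log2FC 1.21) the interval held 0. PYCARD, with 9 and 1 counts, had the highest log2FC of the 46 genes, 2.66 (interval 0.31 to 8.61). The lower genes were TMEFF2 (10 and 23 counts, log2FC -1.17, interval -2.45 to -0.083) and ZMYND10, the neighbor of RASSF1 (5 and 12 counts, log2FC -1.19, interval -3.13 to 0.34). GSTP1, a detoxifying enzyme silenced in prostate cancer, had 5813 and 5807 counts, so it was expressed in both libraries.

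**Figure D5:**
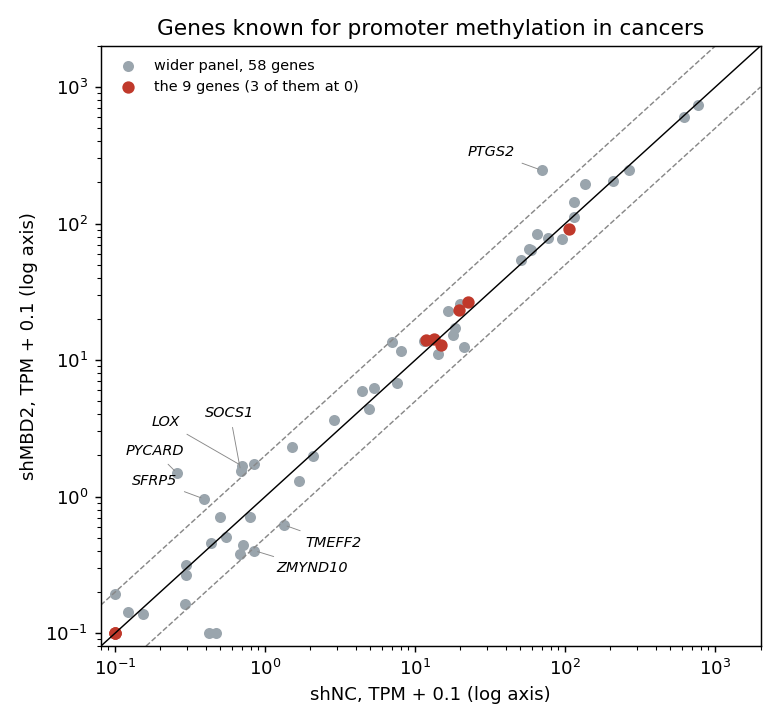
TPM plus 0.1 in shMBD2 against shNC (both log axes) for the wider panel (gray) and the 9 genes (red), with the line of equal values and dashed lines at a 2-fold difference; panel genes named have at least 10 counts and a log2FC past 1 or -1. The 9 genes lie along the line of equal values, 3 of them at 0, and PTGS2 is the panel gene above 10 TPM in shNC that lies outside the dashed lines.

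Finally, silent genes with a CpG-rich start were counted over the whole table. Of 9660 protein-coding genes with at least 1 CpG-rich window, 1035 had 3 or fewer counts in shNC, and 39 of these, or 3.77%, reached 10 counts in shMBD2. CDKN2A and OPCML belong to the 1035 and not to the 39, and CDH13, which had no window, could not be placed. Silent genes with other windows reached 10 counts in 51 of 2873 cases (1.78%). The groups started from unlike levels, as 63.4% of the silent CpG-rich genes and 77.4% of the other silent genes had 0 counts in shNC. Among genes with 0 counts in shNC, as CDKN2A and OPCML had, 6 of 656 CpG-rich genes (0.915%) and 13 of 2224 others (0.585%) reached 10 counts. In the opposite direction, 13 of the 979 CpG-rich genes silent in shMBD2 had at least 10 counts in shNC (1.33%). Over all protein-coding genes the shares were also unequal, at 2.33% for genes silent in shNC and 0.844% (42 of 4979) for genes silent in shMBD2, and whether the directions differ more for CpG-rich genes was not tested.

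Of the other readers and writers of DNA methylation, none of the 8 compared was past a log2FC of 1 or -1. DNMT3B, which sets new methylation, had 474 counts in shMBD2 and 309 in shNC (log2FC 0.61, interval 0.40 to 0.82). MBD3, the closest relative of MBD2, had 432 and 472 counts (log2FC -0.14, interval -0.33 to 0.055) and DNMT1 had 2476 and 2270 (log2FC 0.12, interval 0.034 to 0.20).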

How the data were processed

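RNA-seq of TFK1 cells was used from 2 groups of 1 library each, grouped by the labels. The authors deposited whole-number read counts per gene and TPM per gene. Per the labels, fastp, HISAT2 2.1.0, featureCounts, DESeq 1.18.1 and GRCh38.p13 were used. The annotation and the strand setting are not given in the sources used here. Gene positions in the tables differ from those of GENCODE 29 (GRCh38), so printed positions were taken from GENCODE by Ensembl ID, and the tables' own positions were used only to find neighbors. Of 63723 lines, 46 name no gene and were dropped. Values repeat over the Ensembl IDs of a symbol, and repeats were dropped, which left 56638 genes.

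Counts were scaled with TMM (edgeR 4.0.16, R 4.3.3), with a prior of 0.5 counts, for genes with at least 10 counts over both libraries. Intervals are Clopper-Pearson (scipy 1.17.1). Without replicates no test was run. Promoter windows were joined by gene ID and found for 80.2% of 18695 protein-coding genes. Statistics were checked on simulated counts. Alternatives were DESeq2 1.42.0 size factors, total counts, upper-quartile factors, other prior counts, deposited TPM with a pseudocount, other count filters and other limits of a silent or released gene. The 9 genes and the lists were chosen with earlier results of these data known. Genes named were the 9, MBD2, their families, partners and neighbors, and panel genes that were past a log2FC of 1 or -1 or released. Panel genes at 0, GSTP1 and the methylation readers and writers described were picked from their lists after their values were seen. Some genes of these lists are counted but not reported here.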

Additional observations from a re-analysis of the deposited data

How the results depend on the processing

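The 3 silent genes, the absence of a release among them, and the absence of a log2FC past 1 or -1 among the 9 genes held under all alternatives run for them. For the 3 silent genes this was fixed in advance, as 0 counts in both libraries meet every limit of a silent gene and none of a released gene. The 6 expressed genes kept their sign under all 7 alternatives for log2FC, each within its counting interval: MGMT lay between 0.25 and 0.31, CHFR between 0.23 and 0.28, RARB between 0.24 and 0.29, RASSF1 between 0.10 and 0.14, RUNX3 between -0.20 and -0.17, and DAPK1 between -0.22 and -0.18. Counts of other genes moved with the handling of low counts. With log2 of TPM plus 1, the wider panel had 2 genes above 1 and 0 below -1, and all genes 374 and 340, as a pseudocount of 1 shrinks the differences of low genes by construction. With at least 100 counts the panel had 1 and 0 of 28 genes, against 6 and 2 of 46 in the report. All genes had 213 and 127 of 11972, against 961 and 890 of 17545. The counts of genes past the lines thus fell by a larger share than the genes compared. With at least 1 count the panel had 5 genes below -1, and all genes 4523 above and 4303 below. Of the CpG-rich genes silent in shNC, 39 were released, against 6 when silent meant 0 counts, 302 when it meant below 1 TPM, and 22 when a released gene had to reach 1 TPM. These limits admitted 656, 1539 and 1035 genes, against 1035 in the report, and a gene below 1 TPM can already hold 10 counts in shNC. The cause of the other moves was not tested. No paired analysis was possible because each group has 1 library, and for the same reason no replicate could be left out. For the silent genes, depth limits the statement to a level of at most 3 counts in each library.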

Other observations

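Genes that act with the 9 were compared from lists of partners, which had also been chosen with earlier results of these data known. Of the 7 genes of retinoid handling or response set beside RARB, 5 had a log2FC above 1, TGM2 among them. This was so for 5.48% of all genes compared, and RARB itself was at 0.28. TGM2, a transglutaminase induced by retinoic acid in many cells, had 6986 counts in shMBD2 and 3134 in shNC (log2FC 1.15, interval 1.09 to 1.21). STRA6, which brings retinol into the cell, had 1606 and 763 (log2FC 1.06, interval 0.94 to 1.19). CYP26A1, which breaks down retinoic acid, had 30 and 10 (log2FC 1.53, interval 0.50 to 2.77), and CRABP2, which carries it to the nucleus, had 26 and 12 (log2FC 1.08, interval 0.069 to 2.23). CYP26B1 (462 and 510) and DHRS3 (841 and 892) lay at -0.15 and -0.094. All 7 of these genes rest on the same pair of libraries, and only STRA6 and TGM2 of the 5 had over 100 counts in either.

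CDK4, CDK6 and MDM2, on which the CDKN2A products act, were expressed in both libraries. CDK4 had 970 counts in shMBD2 and 846 in shNC (log2FC 0.19, interval 0.054 to 0.32), CDK6 had 3981 and 3646 (log2FC 0.12, interval 0.053 to 0.18) and MDM2 had 1728 and 1584 (log2FC 0.12, interval 0.017 to 0.22). CDKN1A, a CDK inhibitor, had 1821 and 994 counts and a log2FC of 0.86 (interval 0.75 to 0.98). All 6 Hippo and apoptosis partners of RASSF1 were lower in shMBD2, between -0.29 for LATS2 and -0.060 for STK4. For 5 of the 6 the counting interval held 0, so those differences were within counting error. Over all genes compared the median log2FC was -0.0082, and the interval left out 0 for 38.1%. The 7 repair genes set beside MGMT lay between -0.089 and 0.33, and the CHFR partners PLK1, AURKA and PARP1 between 0.018 and 0.095. BECN1, set beside DAPK1, had 829 and 983 counts (log2FC -0.25). ADIPOQ, which encodes the CDH13 ligand adiponectin, had 0 counts in both libraries, and HSPA5 had 15643 and 12085 (log2FC 0.36).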
